A study of Mus musculus with 14 samples.

Results

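The comparison described here sets late puberty against early puberty in the mouse mammary gland: 6 arrays of glands at 6 and 7 weeks of age against 6 arrays at 3 and 4 weeks, 12 of the 14 arrays of the series. Members were chosen by the age in the array titles (6wk and 7wk, 3wk and 4wk), with 3 arrays (A, B and C) at each age. The 2 arrays at 5 weeks took no part in the fit and serve below as an intermediate age that the comparison did not use. All arrays carried RNA of whole 4th inguinal mammary glands of untreated female CD1 mice, an outbred strain, with the lymph nodes dissected away, and each array held RNA pooled from at least 3 mice. The replicates are therefore pools, and p-values measure the spread between pools. The change reported for a gene is the mean of 6wk and 7wk minus the mean of 3wk and 4wk on the log2 scale, with its standard error (SE) from limma and a p-value adjusted over all 12393 genes. A gene is said to have risen or fallen where that adjusted p is under 0.05.

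The pubertal mammary gland is a tree of epithelial ducts that grows out of the nipple region into a pad of fat. Under ovarian hormones and growth factors the terminal end buds at the duct tips divide and branch, and the ducts that they leave behind consist of an inner luminal layer, which can later make milk, and an outer basal layer of contractile myoepithelial cells. The pad around them consists of adipocytes, fibroblasts, vessels, nerves and immune cells, and in young mice it can also hold adipocytes of the brown or beige kind, which burn fatty acids to make heat through the mitochondrial uncoupling protein Ucp1.

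Each deposited value is a ratio, a probe set's signal over its median across the 14 arrays, and so it can be set against other ages of the same gene but not against other genes. The epithelial keratins Krt8 and Krt14 and the adipocyte gene Adipoq have a value on all 12 arrays, as every probe set does. Such ratios cannot show that a marker is present, so the tissue is known from the labels alone. RNA and handling controls differed between weeks, and the RNA controls for actin and pyruvate carboxylase split the late side. For actin, the log2 ratio of control probe sets at the 5' end over those at the 3' end was lowest at 6wk. It lay between −0.79 and 0.16 on the 6wk and 7wk arrays and between −0.06 and 0.28 on the 3wk and 4wk arrays. At 7wk alone it lay between 0.04 and 0.16, within the early range. The same ratio for pyruvate carboxylase lay between −2.78 and −1.81 at 6wk, 0.76 and 0.90 at 7wk, and −0.66 and 0.46 on the early arrays. For the transferrin receptor 6wk was not lowest. That ratio lay between −0.74 and 0.07 at 6wk, −1.04 and 1.38 at 7wk, and −1.38 and 0.20 on the early arrays. The mean log2 ratio of the hybridisation controls, which are spiked in after labelling, was −1.86 to 0.14 on the 6wk and 7wk arrays and −0.23 to 1.10 on the 3wk and 4wk arrays, with 7wk lowest. For this reason counts of genes are also given without a week, or with the actin ratio or the hybridisation controls as a covariate (below, the actin and the hybridisation covariate). One early array, 3wk A, stood apart by skeletal muscle genes, with a list mean of 1.41 log2 units against −0.13 to −0.05 on the other early arrays.

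Between the sides 865 of 12393 genes rose (6.98%) and 490 fell (3.95%), against 3184 genes of either direction at an unadjusted p under 0.05. The counts of the gene lists below are to be read beside these 2 shares of all genes. Counted by probe set, 2290 of 20380 passed (11.2%). The genes that rose did so by a median of 0.78 on the log2 scale and 74 of them by at least 2, whereas the genes that fell had a median change of −0.58 and 13 of them changed by at least 2 log2 units. All 6 late arrays lay above all 6 early arrays for 524 genes (4.23% of those tested), 475 of which had risen, and below them for 286 genes (2.31%), 257 of which had fallen. In RNA of a whole gland, fewer cells of a type and less RNA per cell cannot be told apart. The count fell to 547 genes without 6wk, 746 without 7wk, 384 without 3wk, 560 with the actin covariate and 152 with the hybridisation covariate. Without 3wk A it was 1132. All 1355 genes kept their sign with either covariate. Of the 135 genes with a call that were named by rule, 48 kept it with the hybridisation covariate, 83 with the actin covariate, 75 without 3wk, 92 without 6wk and 98 without 7wk.

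**Figure D1:**
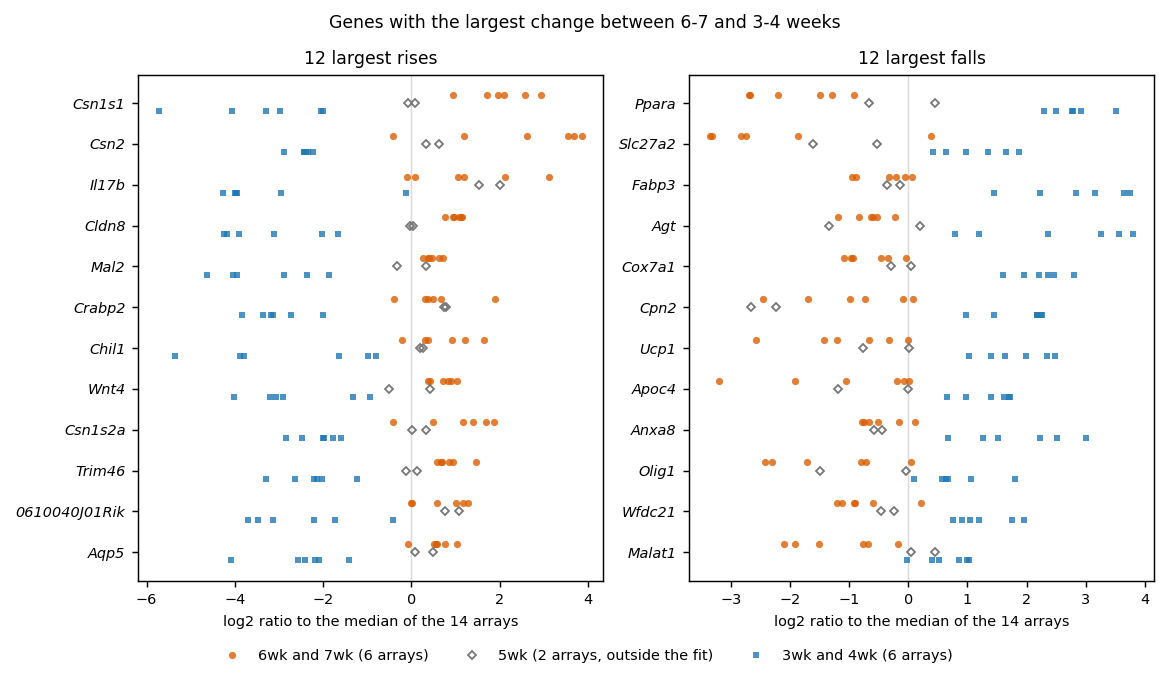
Log2 ratio to the median of the 14 arrays (horizontal axis) for the 12 genes with the largest rise (left) and the 12 with the largest fall (right) among genes whose sides do not overlap. Each mark is 1 array: circles are 6wk and 7wk, open diamonds 5wk and squares 3wk and 4wk. In every row the 6 circles lie on one side of the 6 squares. For Malat1 both 5wk arrays lie nearer to the squares.

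Genes of milk had the largest rises. Csn1s1, the gene of alpha-S1-casein, had ratios of 1.92 to 7.68 (median 4.10) on the 6wk and 7wk arrays, against 0.0191 to 0.248 (median 0.114) on the 3wk and 4wk arrays, a change of 5.40 (SE 0.43, adjusted p = 0.00012). Csn2, the gene of beta-casein, had 0.743 to 14.6 (median 8.47) on the late arrays and 0.136 to 0.213 (median 0.188) on the early arrays, a change of 4.87 (SE 0.41, adjusted p = 0.00014). The sides did not overlap for either casein, and the late arrays were far more spread out for Csn2 than the early ones. Csn1s2a, another casein gene, had 0.749 to 3.67 on the late arrays against 0.139 to 0.333 on the early arrays (change 3.15, SE 0.29), but its 4 probe sets disagreed: 2 of them changed by 7.12 and 6.21, the others by −0.41 and −0.33. Muc15, a membrane mucin of milk fat globules, rose by 2.80 (SE 0.26, adjusted p = 0.00028). Lalba, the milk protein that directs lactose synthesis, rose by 1.85 and Csn3, the gene of kappa-casein, by 1.54.

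In total 10 of 25 milk genes tested rose and 0 fell, with a median change of 0.38, where the median over all genes was 0.03. Whether or not they passed, 18 of the 25 changed upwards and 7 downwards. The lowest change was −2.80, that of Glycam1, and it did not pass. Wap, the whey acidic protein gene that is abundant in lactation, had 0.805 to 1.09 (median 0.961) on the late arrays and 0.645 to 1.44 (median 1.01) on the early arrays, with overlapping sides and a change of −0.04 (SE 0.16, adjusted p = 0.90). Stat5a, the transcription factor that carries the prolactin signal to milk genes, changed by 0.54 (SE 0.17, adjusted p = 0.067), which did not pass. It passed with all 14 arrays in the fit and without 6wk B (change 0.64, adjusted p = 0.039). The milk count was 9 without 6wk, 8 without 7wk and 7 with the hybridisation covariate.

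The promoters of both leading caseins are shown because these genes lie near each other on chromosome 5 and both rose between the sides. Both also hold the letters TTCNNNGAA, the form of site that STAT factors bind. Their weekly courses differed. Csn1s1 changed by 2.01 between 4wk and 3wk and by 0.59 between 7wk and 6wk, and Csn2 by 0.12 and 2.58. None of these changes within a side passed. Sequences are the 250 bases before the RefSeq start on GRCm38.p6, on the strand of the gene, with the matching letters in capitals. Csn1s1 is on the plus strand at chr5:87665958-87666207 and Csn2 on the minus strand at chr5:87699426-87699675.
Csn1s1: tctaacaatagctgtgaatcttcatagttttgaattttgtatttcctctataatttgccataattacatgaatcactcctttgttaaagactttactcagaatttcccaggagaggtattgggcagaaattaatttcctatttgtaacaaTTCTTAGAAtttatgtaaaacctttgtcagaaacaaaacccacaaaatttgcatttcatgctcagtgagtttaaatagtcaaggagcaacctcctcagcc
Csn2: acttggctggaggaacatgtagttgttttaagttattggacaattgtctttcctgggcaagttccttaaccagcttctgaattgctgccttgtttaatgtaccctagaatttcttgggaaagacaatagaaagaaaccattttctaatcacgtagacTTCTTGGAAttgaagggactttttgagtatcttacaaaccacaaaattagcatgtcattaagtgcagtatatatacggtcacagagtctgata
The match begins 100 bases before the start of Csn1s1 and 93 bases before that of Csn2. Searched on both strands, the letters occur in 7.18% of 27025 promoters of this length and in 4.44% of the promoters of genes that rose, and in 22.2% of 18 promoters of milk genes tested, 2 of them among the 6 milk genes that rose and have a promoter in the table. The match is a description of letters, chosen from a larger number of motifs after the values had been seen.

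Luminal and general epithelial genes rose together. Of 39 tested, 34 rose and 0 fell, the median change was 1.6, and for 31 the late arrays all lay above the early arrays. Cldn8, a claudin that seals the spaces between epithelial cells, had 1.70 to 2.21 (median 2.02) on the late arrays against 0.0526 to 0.315 (median 0.0875) on the early arrays, a change of 4.19 (SE 0.47, adjusted p = 0.00069). Mal2, a protein of transport to the apical membrane, had 1.21 to 1.64 (median 1.35) on the late arrays and 0.0406 to 0.275 (median 0.0932) on the early arrays, a change of 3.76 (SE 0.38). The sides were far apart for both genes and the late arrays lay close together. Muc1, a mucin that coats secretory epithelium, rose by 3.53 (SE 0.50) with 0.776 to 15.5 on the late arrays and 0.181 to 1.01 on the early arrays, which overlap. Prss8, a membrane-bound serine protease that acts on epithelial sodium channels, rose by 2.95 (SE 0.51, adjusted p = 0.0055). Krt8, a keratin of luminal cells, had 1.07 to 1.89 (median 1.21) on the late arrays and 0.206 to 0.725 (median 0.483) on the early arrays, a change of 1.55 (SE 0.26). Elf5, the transcription factor of alveolar luminal cells, had 1.27 to 2.57 (median 1.76) on the late arrays and 0.223 to 0.642 (median 0.382) on the early arrays, a change of 2.32 (SE 0.21, adjusted p = 0.00026). Epcam, the adhesion molecule of simple epithelia, rose by 2.44 (SE 0.20) and Krt18, the keratin partner of Krt8, by 1.52 (SE 0.17).

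The 5 luminal genes that did not pass were Jup (−0.03), Myo5b (0.27), Ovol1 (0.48), Ank3 (0.55) and Grhl2 (0.67). The mean of the list on each array ran from 0.23 to 0.74 log2 units on the late arrays and from −1.94 to −0.66 on the early arrays, so no late array reached the early range. Krt8 and Prss8 lost the call with either covariate and without 6wk, and Muc1, whose mean log2 ratio was 1.24 at 6wk and 3.39 at 7wk, lost it without 7wk or 3wk. Without 6wk 25 of the members passed, without 7wk 31, and with the hybridisation covariate 17, all of them upwards.

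Genes of tight junctions and cell adhesion, many of which the luminal list holds too, numbered 16 risen and 0 fallen of 28 tested, with a median of 1.08. Cdh1, the E-cadherin that joins epithelial cells, had 1.04 to 1.66 (median 1.31) on the late arrays against 0.175 to 0.477 (median 0.348) on the early arrays, a change of 2.06 (SE 0.16, adjusted p = 0.00012). Cldn3, a claudin, rose by 2.16 (SE 0.33) and Dsc2, a cadherin of desmosomes, by 1.91 (SE 0.28). Among components that are not particular to epithelium, Tjp1, a scaffold of junctions in many cell types, changed by 0.08 and Cldn5, the claudin of blood vessels, by −0.40, and neither passed. The count of rises was 12 without 6wk, 12 without 7wk, 10 with the actin covariate and 8 with the hybridisation covariate.

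Of 27 basal and myoepithelial genes tested, 12 rose and 0 fell, with a median of 0.69. Cnn1, calponin of smooth muscle and myoepithelial cells, had 0.991 to 2.16 (median 1.03) on the late arrays and 0.103 to 0.743 (median 0.318) on the early arrays, a change of 2.06 (SE 0.21, adjusted p = 0.00049). Krt14, the keratin that marks the basal layer, had 0.952 to 1.45 (median 1.22) on the late arrays against 0.306 to 0.656 (median 0.596) on the early arrays, a change of 1.24 (SE 0.16), although 1 of its 3 probe sets changed by 0.08 where the others changed by 1.75 and 1.88. The sides did not overlap for either gene. Itgb4, the integrin of hemidesmosomes, rose by 1.61 (SE 0.42, adjusted p = 0.038) and Sfn, the 14-3-3 protein of keratinocytes, by 1.48 (SE 0.36, adjusted p = 0.028). Both of these lost the call when 1 array was left out, Itgb4 for 10 of the 12 arrays and Sfn for 7, with adjusted p up to 0.084 and 0.060. Krt5, the partner of Krt14, changed by 0.72 (SE 0.22, adjusted p = 0.062), and Acta2, the actin of contractile cells, by 0.51 (SE 0.15, adjusted p = 0.057). Krt5 passed without 3wk B or 7wk B (adjusted p = 0.046 and 0.031) and Acta2 without 6wk A (adjusted p = 0.025). Krt14 lost the call with the hybridisation covariate and Cnn1 without 3wk. The difference between the luminal and basal lists was not tested. The basal count was 5 without 6wk, 9 without 7wk, 3 without 3wk and 2 with the hybridisation covariate.

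**Figure D2:**
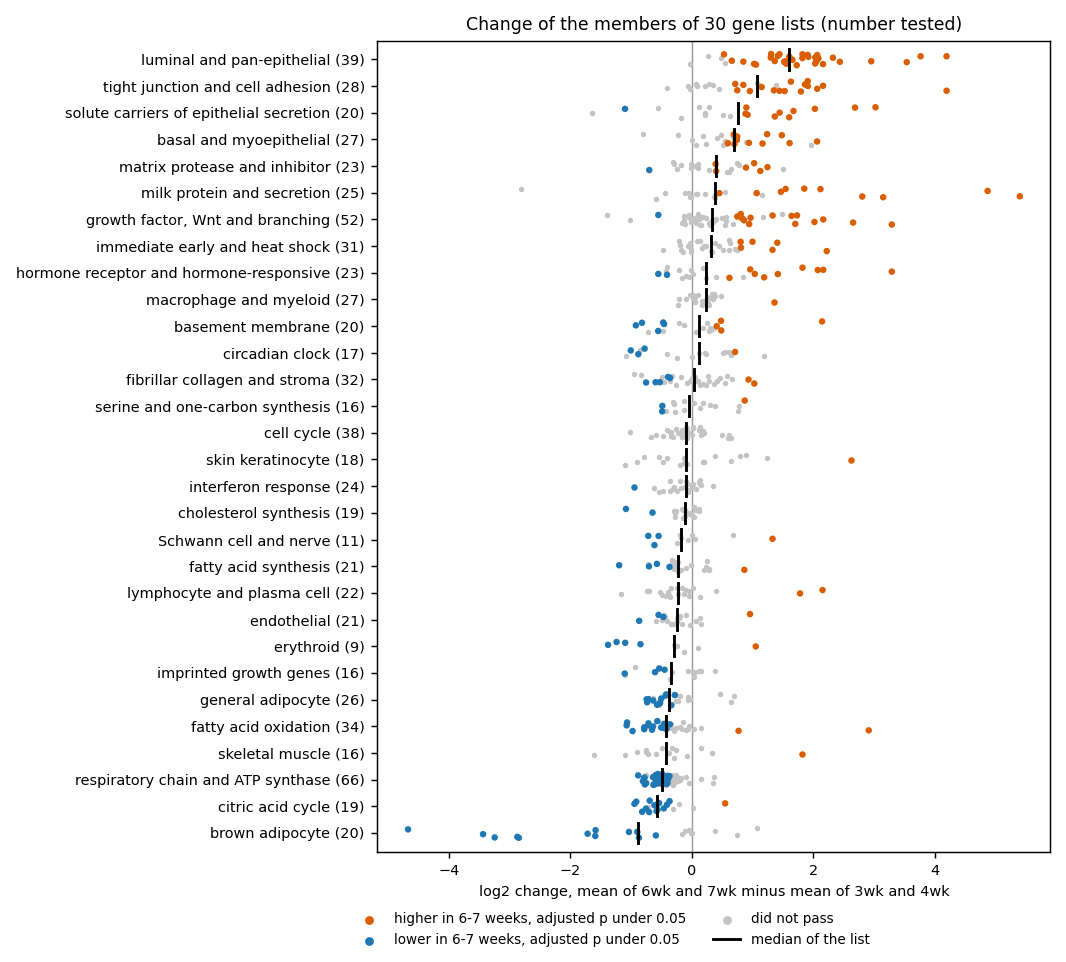
Log2 change (mean of 6wk and 7wk minus mean of 3wk and 4wk, horizontal axis) of every tested member of 30 gene lists, with the number tested in brackets. Orange marks are genes that rose, blue marks genes that fell, grey marks genes that did not pass, and the black bar is the median of the list. Lists are ordered by median, from 1.6 for luminal genes to −0.88 for brown adipocyte genes.

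Receptors and targets of ovarian hormones did not move as one. Esr1, the oestrogen receptor alpha gene, had 0.297 to 1.63 (median 1.03) on the late arrays and 0.349 to 1.77 (median 0.620) on the early arrays, with overlapping sides and a change of 0.40 (SE 0.51, adjusted p = 0.68). Pgr, the progesterone receptor gene, had 0.766 to 1.28 (median 1.12) on the late arrays and 0.272 to 1.08 (median 0.646) on the early arrays, a change of 0.84 (SE 0.35, adjusted p = 0.17) that did not pass. Prlr, the prolactin receptor gene, was not analysed here. In the whole list of receptors, their targets and transcription factors of hormone-sensing cells, 9 of 23 tested rose, 2 fell and 12 did not pass, with a median of 0.24. The counts were 7 rises without 6wk, 6 rises and 2 falls without 7wk, 6 rises and 1 fall with the actin covariate and 3 rises with the hybridisation covariate.

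Wnt4, the Wnt ligand induced by progesterone in mammary epithelium, had 1.30 to 2.06 (median 1.70) on the late arrays against 0.0616 to 0.524 (median 0.126) on the early arrays, a change of 3.29 (SE 0.50, adjusted p = 0.0031). Stc2, a secreted glycoprotein responsive to oestrogen, had 1.13 to 1.48 (median 1.31) on the late arrays and 0.191 to 0.437 (median 0.291) on the early arrays, a change of 2.16 (SE 0.13, adjusted p = 3.9e-05). Gata3, a transcription factor that maintains luminal cells, rose by 2.07 (SE 0.32) and Foxa1, the factor that opens chromatin for the oestrogen receptor, by 1.82 (SE 0.19), each with no overlap of the sides. Tnfsf11, the RANK ligand through which progesterone acts on neighbouring cells, rose by 1.19. The 2 genes that fell were Igf1, the growth factor made by stroma under growth hormone, with 0.713 to 1.0 (median 0.936) on the late arrays and 1.10 to 1.46 (median 1.33) on the early arrays (change −0.55, SE 0.11, adjusted p = 0.0091), and Igfbp4, a binding protein of that growth factor, by 0.41 (adjusted p = 0.035). Igfbp4 lost the call on leaving out any of 9 arrays, with adjusted p up to 0.083. Wnt4 lost the call with either covariate, and Gata3, Foxa1 and Igf1 with the hybridisation covariate.

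Of 52 growth factor, Wnt and branching genes 14 rose and 1, Igf1, fell, with a median of 0.33. Besides Wnt4 the largest changes were those of Wif1, a secreted Wnt inhibitor (2.65, SE 0.63, adjusted p = 0.024), Sox9, a transcription factor of epithelial progenitors (2.16, SE 0.29, with probe sets at 3.21 and 1.11), and Msx2, a homeobox factor of epithelial branching (2.02, SE 0.41, adjusted p = 0.012). Wif1 had 0.947 to 2.14 on the late arrays and 0.0269 to 1.05 on the early arrays, so the sides overlapped, and it lost the call on leaving out any of 6 arrays (adjusted p up to 0.059). Among the receptors, Fgfr2, a receptor of fibroblast growth factors on epithelium, rose by 0.83 and Erbb2, a receptor of the epidermal growth factor family, by 0.86, while Egfr changed by 0.02 and Fgfr1 by −0.07, which did not pass. The ligands Fgf10, Fgf7 and Hgf, which stromal cells make for the ducts, changed by −0.04, −0.13 and −0.04 and did not pass either. The count without 3wk was 5, all upwards, and with the hybridisation covariate 2, which did not include Wnt4, Wif1, Sox9 or Msx2.

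Channels, pumps and carriers of secretory epithelium rose in 10 of 20 cases and fell in 1, with a median of 0.76. Aqp5, a water channel of exocrine glands, had 0.946 to 2.05 (median 1.48) on the late arrays and 0.0588 to 0.378 (median 0.203) on the early arrays, a change of 3.02 (SE 0.31, adjusted p = 0.00046). Kcnn4, a calcium-activated potassium channel, rose by 2.68 (SE 0.39), Atp6v1b1, a subunit of the proton pump of acid-secreting cells, by 2.02 (SE 0.26), and Kcnk1, a potassium channel, by 1.67 (SE 0.23). None of these 4 overlapped between the sides. The gene that fell was Slc4a4, a sodium bicarbonate cotransporter, with 0.5 to 0.861 (median 0.586) on the late arrays and 0.985 to 2.05 (median 1.29) on the early arrays, a change of −1.10 (SE 0.16, adjusted p = 0.0026). Its probe sets ran from −1.73 to −0.31. The rises numbered 5 without 3wk, 6 without 6wk, 7 without 7wk, 6 with the actin covariate and 2 with the hybridisation covariate. Kcnn4, Atp6v1b1 and Kcnk1 lost the call with the hybridisation covariate, and Slc4a4 with the actin covariate and without 7wk.

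The largest falls were of genes of heat-producing fat and fatty acid use. Ppara, the nuclear receptor that switches on fatty acid oxidation, had 0.154 to 0.528 (median 0.279) on the late arrays against 4.90 to 11.4 (median 6.81) on the early arrays, a change of −4.67 (SE 0.20, adjusted p = 6.5e-06). Ucp1, the uncoupling protein, had 0.167 to 0.991 (median 0.523) on the late arrays against 2.05 to 5.58 (median 3.50) on the early arrays, a change of −2.85 (SE 0.42, adjusted p = 0.0026). Fabp3, a fatty acid binding protein of oxidative tissue, had 0.514 to 1.04 (median 0.830) on the late arrays and 2.73 to 13.4 (median 8.00) on the early arrays, a change of −3.24 (SE 0.26). The late and early arrays lay wide apart for all 3 genes, and the adjusted p of each stayed under the threshold with either covariate. Cox7a1, a subunit of cytochrome oxidase found in heart, muscle and brown fat, had 0.471 to 0.969 (median 0.614) on the late arrays against 3.05 to 6.95 (median 4.86) on the early arrays, a change of −2.87 (SE 0.20, adjusted p = 8.2e-05). Slc27a2, an acyl-CoA synthetase that takes up fatty acids, had 0.0983 to 1.31 (median 0.145) on the late arrays and 1.34 to 3.67 (median 2.24) on the early arrays, a change of −3.44 (SE 0.55, adjusted p = 0.0041), with 1 late array almost at the early range. Cidea, a lipid droplet protein of brown fat, fell by 1.59 on the log2 scale (SE 0.23, adjusted p = 0.0023). With the hybridisation covariate Slc27a2 (adjusted p = 0.11) and Cidea (adjusted p = 0.092) no longer passed, and Slc27a2 did not pass without 7wk either.

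Of 20 brown adipocyte genes 12 fell and 0 rose, with a median of −0.88, and 10 had all late arrays below all early arrays. Among the regulators Ppargc1a, the coactivator that drives formation of mitochondria, changed by −1.04 and Ppargc1b, its relative, by −0.87, and both passed. Others did not follow: Elovl3, an elongase of brown fat, changed by 0.00, Dio2, the deiodinase of brown fat, by −0.17, Zic1, a factor of classical brown fat, by −0.06, and Tbx15 by −0.11, and none passed. On the early arrays the list averaged 0.54 to 0.98 log2 units, and on the late arrays −0.69 to 0.02. The count was 10 without 6wk, 10 without 7wk, 9 without 3wk and 5 with the hybridisation covariate.

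Of 26 general adipocyte genes tested 12 fell and 0 rose, with a median of −0.38. Fabp4, the fatty acid binding protein of adipocytes, had 0.680 to 0.853 (median 0.788) on the late arrays and 1.07 to 1.57 (median 1.24) on the early arrays, a change of −0.71 (SE 0.11, adjusted p = 0.0037) over 4 probe sets that ran from −1.47 to −0.16. Lgals12, a galectin of lipid droplets, and Acvr1c, an activin receptor of fat, each changed by −0.74, and Slc2a4, the insulin-responsive glucose carrier, by −0.64, and all 3 passed. Adipoq, the adiponectin gene, had 0.811 to 0.973 (median 0.932) on the late arrays and 0.979 to 1.19 (median 1.12) on the early arrays, a change of −0.28 (SE 0.08, adjusted p = 0.049). The sides came close without overlapping, and leaving out any of 11 arrays took the adjusted p of Adipoq over the threshold, up to 0.11. Lep, the leptin gene, had 0.874 to 1.67 (median 1.15) on the late arrays and 0.683 to 1.21 (median 0.830) on the early arrays, a change of 0.46 (SE 0.16, adjusted p = 0.091) that did not pass except without 7wk A (adjusted p = 0.025). Without 6wk 2 members rose and 5 fell, without 4wk 4 fell, and with the hybridisation covariate 1 fell. Fabp4, Acvr1c, Slc2a4 and Adipoq lost the call with that covariate, and Acvr1c and Slc2a4 also without 6wk.

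Genes of fatty acid synthesis gave 1 rise and 4 falls of 21, with a median of −0.23. Acaca, the carboxylase that commits acetyl-CoA to fatty acid synthesis, had 0.209 to 1.55 on the late arrays and 0.619 to 2.57 on the early arrays, a change of −1.20 (SE 0.14, adjusted p = 0.0010), but it differed within each side as well, by 2.66 between 7wk and 6wk and by 1.37 between 4wk and 3wk, and without 6wk its change was 0.13. Gpam, which starts triglyceride synthesis, fell by 0.71 (SE 0.10) with no overlap. Elovl6, an elongase of saturated fatty acids, rose by 0.86 (SE 0.16), with 0.648 to 1.36 on the late arrays and 0.258 to 1.27 on the early arrays, and its change was −0.19 without 3wk. In cholesterol synthesis 2 of 19 fell, Mvk by 1.08 and Fdft1 by 0.65, with a median of −0.12, and Fdft1 lost the call on leaving out any of 10 arrays (adjusted p up to 0.083). The probe sets of Fdft1 ran from −1.30 to −0.04. With the hybridisation covariate 0 genes of either list passed.

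**Figure D3:**
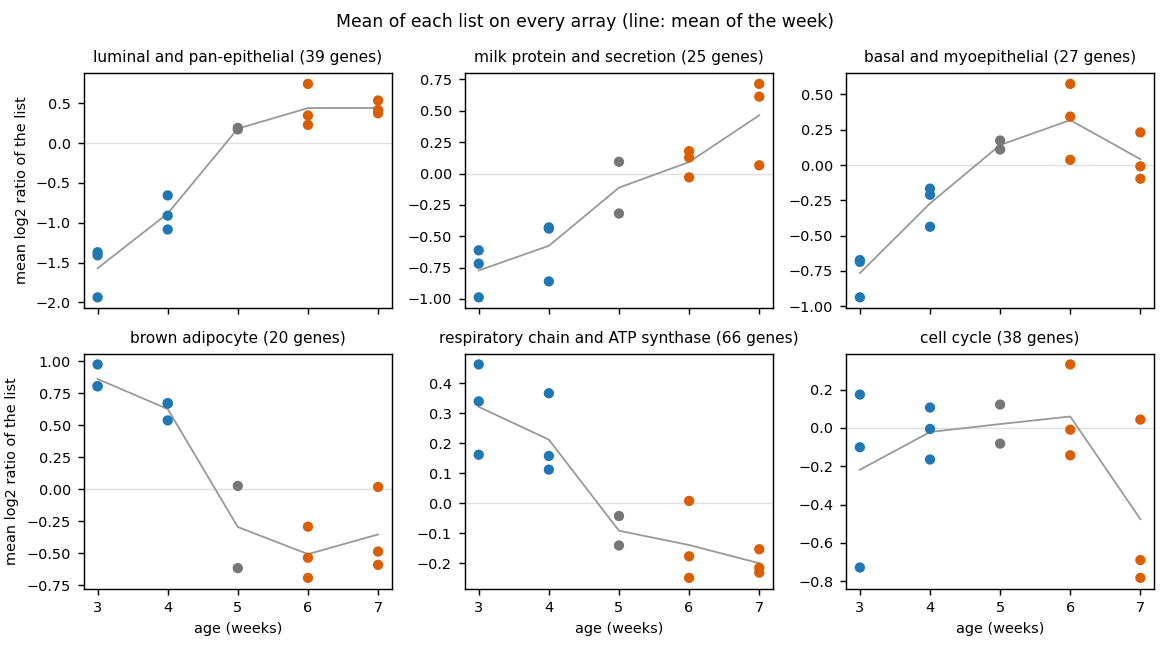
Mean log2 ratio of 6 gene lists (vertical axis) on each array against age in weeks (horizontal axis). Each point is 1 array (orange 6wk and 7wk, grey 5wk, blue 3wk and 4wk) and the line joins the week means. Luminal means at 3, 4, 5, 6 and 7 weeks are −1.57, −0.88, 0.18, 0.44 and 0.44, and brown adipocyte means 0.86, 0.63, −0.30, −0.51 and −0.35.

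Of 34 genes of fatty acid oxidation 17 fell and 2 rose, with a median of −0.43. Acadvl, the dehydrogenase that starts oxidation of very long chains, had 0.717 to 0.999 (median 0.777) on the late arrays and 1.54 to 1.96 (median 1.67) on the early arrays, a change of −1.07 (SE 0.09, adjusted p = 0.00014). Acaa2, the thiolase of the last step, had 0.818 to 0.971 (median 0.902) on the late arrays and 1.49 to 2.29 (median 1.92) on the early arrays, a change of −1.07 (SE 0.09, adjusted p = 0.00012). Eci1, an isomerase for unsaturated chains, fell by 0.98 (SE 0.11). The sides stood apart for all 3 genes, and Eci1 lost the call with the hybridisation covariate.

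The 2 genes of this list that rose went against the 17 that fell. Acot1, a cytosolic thioesterase that frees fatty acids from acyl-CoA, had 1.37 to 2.49 (median 1.88) on the late arrays and 0.192 to 0.353 (median 0.255) on the early arrays, a change of 2.91 (SE 0.18, adjusted p = 3.9e-05). Cpt1a, the liver form of the transferase that admits fatty acids to mitochondria, had 1.01 to 1.52 (median 1.35) on the late arrays and 0.583 to 0.886 (median 0.791) on the early arrays, a change of 0.77 (SE 0.16, adjusted p = 0.012). Neither gene's sides overlapped. Both changed in the direction opposite to Ppara, while Acadvl, Acaa2 and Eci1 fell as Ppara did. A link of any of these genes to Ppara was not tested. Cpt1a lost the call with either covariate and without 3wk or 6wk.

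In the respiratory chain and ATP synthase 39 of 66 genes fell and 0 rose, with a median of −0.49, and for 31 the late arrays all lay below the early arrays. Cyc1, cytochrome c1 of complex III, had 0.796 to 0.973 (median 0.812) on the late arrays and 1.24 to 2.11 (median 1.6) on the early arrays, a change of −0.88 (SE 0.11, adjusted p = 0.0011). Uqcrc2, a core subunit of the same complex, changed by −0.81 (SE 0.09), Sdhb, the iron-sulphur subunit of complex II, by −0.79 (SE 0.11), and Atp5d, a subunit of ATP synthase, by −0.78 (SE 0.15), and all 3 passed with no overlap. In the citric acid cycle and its neighbours 14 of 19 genes fell and 1 rose, with a median of −0.57. Suclg1 and Sucla2, subunits of succinyl-CoA synthetase, changed by −0.94 (SE 0.13) and −0.82 (SE 0.10), Idh2, the mitochondrial isocitrate dehydrogenase that makes NADPH, by −0.91 (SE 0.14), and Idh3b, a subunit of the NAD-dependent enzyme, by −0.76 (SE 0.09). The gene that rose was Got2, the mitochondrial aspartate aminotransferase, with 0.990 to 1.42 on the late arrays and 0.742 to 0.965 on the early arrays, a change of 0.55 (SE 0.11, adjusted p = 0.014).

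The counts of mitochondrial genes changed with the arrays and covariates used. Of the respiratory chain genes 17 fell without 6wk, 9 without 7wk, 9 without 3wk and 1 with the hybridisation covariate, while 33 fell with the actin covariate. Cyc1, Uqcrc2, Sdhb, Atp5d, Idh2, Idh3b and Got2 were among those that lost the call with the hybridisation covariate. For fatty acid oxidation the counts of falls were 9, 7, 7, 3 and 10 in the same order, and for the citric acid cycle 8, 8, 7, 2 and 8.

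Cycs and Sdhd are shown because they fell, by 0.61 and 0.57 on the log2 scale, and their promoters hold the letters CGCANGCGC, the core of the site of the factor NRF1, which is known to bind many genes of the respiratory chain. Cycs encodes cytochrome c and Sdhd a membrane anchor of complex II. They are the 2 genes with the largest falls among the 7 members of the respiratory list that fell and hold the letters. The sequences are again the 250 bases before the RefSeq start on GRCm38.p6, with the match in capitals, at chr6:50566570-50566819 for Cycs and chr9:50603850-50604099 for Sdhd, both on the minus strand.
Cycs: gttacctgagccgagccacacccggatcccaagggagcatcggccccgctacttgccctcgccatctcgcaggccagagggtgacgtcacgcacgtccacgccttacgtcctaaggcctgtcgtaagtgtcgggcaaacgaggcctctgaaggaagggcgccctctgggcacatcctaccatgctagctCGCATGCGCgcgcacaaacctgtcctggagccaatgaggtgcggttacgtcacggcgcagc
Sdhd: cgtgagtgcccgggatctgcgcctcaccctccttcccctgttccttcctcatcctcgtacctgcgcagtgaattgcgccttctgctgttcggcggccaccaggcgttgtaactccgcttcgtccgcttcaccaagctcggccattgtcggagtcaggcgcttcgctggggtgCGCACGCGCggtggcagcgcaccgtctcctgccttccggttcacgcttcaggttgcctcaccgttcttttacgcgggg
On either strand the letters occur in 21.8% of the 55 promoters of tested respiratory genes and in 21.9% of the 32 of those that fell, so genes of this list that fell held them no more often than the list as a whole. They occur in 13% of 384 promoters of all genes that fell, in 6.58% of 653 promoters of genes that rose and in 9.44% of 9887 promoters of genes tested.

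Matrix genes went both ways. Of 32 genes of fibrillar collagen and stroma 2 rose and 5 fell, with a median of 0.03, where 6.98% of all genes rose and 3.95% fell. The thrombospondins Thbs1 and Thbs2, matrix proteins that restrain vessel growth, rose by 1.03 (SE 0.22) and 0.93 (SE 0.18), while Pcolce, the enhancer of procollagen cleavage, changed by −0.75 (SE 0.16) and Col6a1, a chain of beaded-filament collagen, by −0.60 (SE 0.11), both past the threshold. Col1a1, a chain of the main fibrillar collagen, changed by −0.50 (SE 0.15, adjusted p = 0.057), and passed without 3wk A or 6wk C (adjusted p = 0.037 and 0.031). Of 20 basement membrane genes 4 rose and 5 fell. Lama1, a laminin chain of epithelial basement membrane, had 0.896 to 2.04 (median 1.39) on the late arrays against 0.0811 to 1.10 (median 0.363) on the early arrays, a change of 2.14 (SE 0.24, adjusted p = 0.00079). Hspg2, perlecan, had 0.535 to 1.03 (median 0.866) on the late arrays and 1.27 to 1.58 (median 1.47) on the early arrays, a change of −0.82 (SE 0.13), and Nid2 changed by −0.92 (SE 0.20) and Col4a1 by −0.55 (SE 0.11), both past the threshold. The other rises in this list, Fbln1 (0.48), Lama2 (0.48) and Fbln2 (0.41), had adjusted p of 0.047, 0.046 and 0.050, and each lost the call on leaving out any of at least 9 arrays. The basement membrane count ranged from 4 to 8 over the 12 fits that left out 1 array. It was 5 without 3wk C, 4wk B, 6wk C or 7wk B, and 4 without 4wk A or 7wk C. With the hybridisation covariate 0 genes of the collagen and basement membrane lists passed.

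Of 23 matrix proteases and inhibitors 6 rose and 1 fell, with a median of 0.39. Mmp3, stromelysin, had 1.24 to 2.57 (median 1.79) on the late arrays against 0.585 to 0.916 (median 0.714) on the early arrays, a change of 1.24 (SE 0.18, adjusted p = 0.0026). Mmp2, a gelatinase of stromal cells, had 1.21 to 1.62 (median 1.46) on the late arrays and 0.516 to 0.858 (median 0.645) on the early arrays, a change of 1.13 (SE 0.11, adjusted p = 0.00045). Plat, the tissue plasminogen activator, rose by 1.02 (SE 0.10) and Ctsk, a collagen-cleaving cathepsin, by 0.89 (SE 0.11). Timp4, an inhibitor of these proteases that fat makes, had 0.745 to 1.29 on the late arrays and 0.961 to 2.37 on the early arrays, a change of −0.70 (SE 0.15, adjusted p = 0.018). The rises numbered 4 without 3wk, 5 without 6wk, 4 without 7wk and 2 with the hybridisation covariate, where Mmp3, Ctsk and Timp4 lost the call.

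Of 27 macrophage and myeloid genes 1 rose, Cd14, the co-receptor for bacterial lipopolysaccharide, with 0.999 to 1.54 (median 1.45) on the late arrays and 0.4 to 0.583 (median 0.546) on the early arrays (change 1.35, SE 0.13, adjusted p = 0.00028). That share is below the 6.98% of all genes that rose. Without 3wk C or 6wk B 2 members passed. The macrophage markers Csf1r (0.05) and Cd68 (0.30) did not pass. Of 22 lymphocyte genes 2 rose and 0 fell, a share of rises close to that of all genes. Whether or not they passed, 17 of the 22 changed downwards and 5 upwards. The 2 that rose are products of plasma cells that make immunoglobulin A. Igha rose by 2.15 (SE 0.24) and Jchain, the chain that joins immunoglobulin A molecules, by 1.78 (SE 0.30). Igha had 0.98 to 1.89 on the late arrays and 0.125 to 1.11 on the early arrays, so its sides overlapped. The T cell gene Cd3e ranged from 0.332 to 3.35 on the late arrays and from 0.328 to 3.02 on the early arrays, with no side higher (change −0.13, SE 0.59). The lymphocyte list did not move as 1 late group: its mean lay between −0.88 and −0.56 log2 units on the 6wk arrays and between 0.13 and 1.09 on the 7wk arrays, against −0.49 to 0.55 on the early arrays. No member passed between 7wk and 6wk. Without 7wk 1 member rose and 2 fell, and Jchain lost the call there and with either covariate, while neither Igha nor Jchain passed without 3wk.

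Of 21 endothelial genes 1 rose and 3 fell. Vwf, the clotting factor of endothelial cells, had 1.16 to 1.42 (median 1.34) on the late arrays and 0.565 to 0.839 (median 0.644) on the early arrays, a change of 0.96 (SE 0.12, adjusted p = 0.0011), whereas Cdh5, the cadherin of vessels, changed by −0.87 (adjusted p = 0.042), Egfl7 by −0.55 and Nos3, the endothelial nitric oxide synthase, by −0.47. Cdh5 lost the call on leaving out any of 10 arrays, with adjusted p up to 0.090. Of 9 erythroid genes 4 fell and 1 rose. Alas2, the haem enzyme of red cell precursors, had 0.244 to 0.757 (median 0.637) on the late arrays and 1.14 to 1.6 (median 1.39) on the early arrays, a change of −1.38 (SE 0.18), and Tfrc, the transferrin receptor, changed by −1.24 (SE 0.16) and Slc4a1, the anion exchanger of red cells, by −1.10 (SE 0.16). No probe set of Slc4a1 passed alone: they changed by −1.57, −1.52 and −0.21. Hba-a1, a haemoglobin chain, changed by 0.10 (SE 0.36) and did not pass. Epb42, the gene that rose, rests on 2 probe sets of low level that disagree, at 2.59 and −0.49. With low levels left out 0 erythroid genes rose and 3 fell. With the hybridisation covariate 1 erythroid gene rose and 1 fell, and Tfrc and Slc4a1 lost the call, while of the endothelial genes Vwf rose and 0 fell, as with the actin covariate.

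Of 11 Schwann cell genes 3 fell and 1 rose. Mbp and Mal, proteins of myelin, changed by −0.72 (SE 0.12) and −0.62 (SE 0.11), and Pmp22 by −0.55 (adjusted p = 0.039). The probe sets of Mbp ran from −1.04 to 0.19. Egr2, the myelin regulator that is also an immediate early gene, rose by 1.33 (adjusted p = 0.044). Pmp22 and Egr2 each lost the call on leaving out any of 10 arrays, with adjusted p up to 0.087 and 0.10. Skeletal muscle and skin, tissues that a dissection can carry along, gave 1 rise each, of 16 and 18 genes tested. These shares are close to the 6.98% of all genes that rose. Myh4, a myosin of fast muscle, rose by 1.81 (adjusted p = 0.049) and lost the call on leaving out any of 10 arrays (adjusted p up to 0.10), while the muscle list averaged −0.41 to −0.11 on the late arrays, 1.41 on 3wk A and −0.13 to −0.05 on the other 5 early arrays. On 3wk A the ratio of Mylpf, from a probe set of low level, was 24.4 and that of Acta1 7.35. Between the sides Acta1 (0.33), Ckm (−0.37) and Mylpf (−0.59) did not pass. Krt15, a keratin of basal epidermis, changed by 2.62 (SE 0.43), with 10.1, 17.7 and 15.9 at 6wk, 0.564, 0.784 and 2.41 at 7wk, and 0.296 to 1.01 on the early arrays. The high values were those of 6wk, and the call was lost without 6wk, without the week term and with either covariate. The skin genes Krt1 (0.38), Krt10 (−0.08) and Lor (−0.41) did not pass.

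No gene of the cell cycle passed, of 38 tested, with a median of −0.10. Mki67, the proliferation antigen, had 0.231 to 1.28 (median 0.921) on the late arrays and 0.572 to 1.28 (median 1.02) on the early arrays, a change of −0.60 (SE 0.34, adjusted p = 0.31). Without 7wk C, Mki67 passed, with a change of −0.91 (adjusted p = 0.038), as the only gene of the list. Within the late side the mean of the list was 0.06 at 6wk and −0.48 at 7wk, and no member passed in that comparison either. The 7wk arrays were not alike, with −0.78 on 7wk A, −0.69 on 7wk B and 0.04 on 7wk C. The last lay within the 6wk range of −0.14 to 0.33.

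Of 31 immediate early and heat shock genes 6 rose and 0 fell, with a median of 0.31. Hspa1b, the inducible heat shock protein, had 1.31 to 1.85 (median 1.51) on the late arrays and 0.201 to 0.475 (median 0.382) on the early arrays, a change of 2.22 (SE 0.15, adjusted p = 8.2e-05). Its near-identical copy Hspa1a rose by 1.41 (SE 0.25), and probes may not tell the copies apart. Fos, a subunit of the AP-1 factor that stress and handling induce, rose by 1.0 (SE 0.17). Most other heat shock genes did not follow, with Hspa8 at −0.02, Hsp90aa1 at −0.06 and Dnajb1 at 0.13. The rises numbered 2 without 3wk, 4 without 6wk, 4 with the actin covariate and 2 with the hybridisation covariate, where Hspa1a and Fos lost the call.

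Of 17 circadian clock genes 3 fell and 1 rose. The output factors Dbp and Tef changed by −1.01 (SE 0.21) and −0.88 (SE 0.20), Per3 by −0.78 (SE 0.17), and Bhlhe40, a repressor of the clock, by 0.71 (adjusted p = 0.026). The probe sets of Tef ran from −1.68 to −0.31. Bhlhe40 lost the call on leaving out any of 6 arrays (adjusted p up to 0.063), and the hour of dissection was not analysed here. Of 16 imprinted growth genes 4 fell and 0 rose. Dlk1, the inhibitor of adipocyte maturation, had 0.415 to 0.935 (median 0.606) on the late arrays and 1.06 to 1.82 (median 1.27) on the early arrays, a change of −1.11 (SE 0.21, adjusted p = 0.0093). Grb10, a restraint on growth factor signalling, changed by −0.61 (SE 0.08), Ndn, necdin, by −0.45 (SE 0.08), and Gnas, the stimulatory G protein, by −0.54 (adjusted p = 0.038, up to 0.086 on leaving out any of 9 arrays). Of 16 genes of serine and one-carbon synthesis 1 rose and 2 fell: the amino acid carrier Slc1a4 changed by 0.87 (adjusted p = 0.029, up to 0.065 on leaving out any of 8 arrays), and Psat1 and Slc1a5 by −0.49 each. Of 24 interferon response genes 1 fell, Gbp3 (−0.95, SE 0.20), with 2 without 3wk B or 4wk A and 3 without 4wk C. The share of 1 in 24 is close to the 3.95% of all genes that fell. With the hybridisation covariate 0 genes of the clock, imprinted, serine and interferon lists passed.

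The genes with the smallest adjusted p, 6.5e-06 each, were Ppara, described above, Pla1a and Gnaz. Pla1a, a phospholipase that acts on phosphatidylserine, had 1.12 to 1.69 (median 1.55) on the late arrays against 0.169 to 0.4 (median 0.282) on the early arrays, a change of 2.46 (SE 0.12). Gnaz, a G protein subunit that inhibits adenylyl cyclase, had 1.19 to 2.25 (median 1.71) on the late arrays against 0.208 to 0.316 (median 0.266) on the early arrays, a change of 2.61 (SE 0.12). Tlcd4 rose by 2.68 (SE 0.19), Lcn2, an iron-sequestering lipocalin of epithelium, by 2.06 (SE 0.15), and Fxyd3, a regulator of the sodium pump, by 1.99 (SE 0.14). None of these overlapped between the sides.

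Among the largest rises not yet described, Il17b, a cytokine, had 0.940 to 8.63 (median 2.17) on the late arrays and 0.0519 to 0.917 (median 0.0644) on the early arrays, a change of 4.45 (SE 0.60). Crabp2, the carrier that hands retinoic acid to its receptor, had 0.759 to 3.74 (median 1.35) on the late arrays and 0.0704 to 0.251 (median 0.111) on the early arrays, a change of 3.6 (SE 0.30, adjusted p = 0.00013). Chil1, a chitinase-like glycoprotein, had 0.863 to 3.12 (median 1.56) on the late arrays and 0.0244 to 0.574 (median 0.152) on the early arrays, a change of 3.45 (SE 0.29). Trim46 rose by 3.13 (SE 0.31) and 0610040J01Rik, a gene without a given name, by 3.12 (SE 0.50). Il17b and 0610040J01Rik lost the call with the hybridisation covariate and without 3wk.

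Among the largest falls, Agt, the precursor of angiotensin, had 0.439 to 0.859 (median 0.651) on the late arrays and 1.74 to 14.0 (median 7.03) on the early arrays, a change of −3.16 (SE 0.27, adjusted p = 0.00014). Anxa8, a membrane-binding annexin, had 0.580 to 1.09 (median 0.665) on the late arrays and 1.59 to 7.98 (median 3.66) on the early arrays, a change of −2.33 (SE 0.20). Cpn2, a subunit of the plasma carboxypeptidase, changed by −2.86 (SE 0.43), Apoc4, an apolipoprotein, by −2.42 (SE 0.53, adjusted p = 0.018), and Wfdc21, a small secreted protein, by −2.02 (SE 0.20). Olig1, a factor of glial cells, changed by −2.13 (SE 0.43) from a probe set of low level. The nuclear non-coding RNA Malat1 had 0.233 to 0.883 (median 0.454) on the late arrays and 0.986 to 2.03 (median 1.61) on the early arrays, a change of −1.82 (SE 0.21). Cpn2, Apoc4 and Olig1 lost the call with the hybridisation covariate and without 3wk, and Apoc4 and Olig1 with the actin covariate. The 5 probe sets of Malat1 all changed downwards, between −3.08 and −0.74. Its change did not pass without 6wk (−1.17). The mean 5' to 3' ratios of actin and pyruvate carboxylase, though not of the transferrin receptor, were lowest in that week. It passed with the actin covariate (adjusted p = 0.017) and with the hybridisation covariate (adjusted p = 0.024).

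Within the sides few genes differed. Between 7wk and 6wk 6 genes were higher at 7wk and 2 lower (0.0646% of those tested, 1380 at an unadjusted p under 0.05), and between 4wk and 3wk 9 were higher at 4wk and 0 lower (0.0726%, 1136 at an unadjusted p under 0.05). The 3 comparisons do not have equal power, since each within-side comparison has 3 arrays against 3. The median size of change over all genes was 0.24 between the sides, 0.23 between 7wk and 6wk and 0.21 between 4wk and 3wk. Of the genes that rose between the sides 776 of 865, and of those that fell 424 of 490, had a change between the sides larger than both changes within them. These genes were selected for a large change between the sides, which favours that outcome. The share over all genes is not given here, so these counts are a description only. The genes that rose between the sides were already higher at 4wk than at 3wk in 673 of 865 cases (77.8%), whereas 354 of 865 (40.9%) were higher at 7wk than at 6wk. Of those that fell, 285 of 490 (58.2%) were lower at 4wk than at 3wk and 229 (46.7%) lower at 7wk than at 6wk. The 3wk values enter both the change between the sides and that from 3wk to 4wk, so these shares are a description.

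Some genes passed both between the sides and within one of them. Chil1 changed by 3.21 between 4wk and 3wk, Rab30, a small GTPase, by 2.92, Lama1 by 2.89, Crybg1 by 2.34 and Elovl6 by 2.11, all past the threshold with adjusted p between 0.031 and 0.049. These calls were not stable, since 0 genes passed between 4wk and 3wk with the replicate block, without 4wk A or without 4wk B. Rab30 rose by 1.09 between the sides (adjusted p = 0.030), but that change was −0.37 without 3wk, and it lost the call on leaving out any of 8 arrays (adjusted p up to 0.072). Crybg1 rose by 2.54 (SE 0.23) with no overlap. Between 7wk and 6wk, Acaca changed by 2.66, Lamp5, a membrane protein of lysosomes, by −2.57, Scd2, a desaturase that makes monounsaturated fatty acids, by 1.46, Rab5c, a GTPase of endosomes, by 1.32 and Lfng, a glycosyltransferase of Notch receptors, by 1.29. Their changes between the sides were 1.18 for Lamp5, −0.37 for Scd2, −0.62 for Rab5c and −0.83 for Lfng. The 2 probe sets of Lfng disagreed, at −1.59 and −0.07, and the 3 of Scd2 ran from −1.14 to 0.17. The only probe set of Lamp5 and 1 of the 2 of Lfng were of low level. Scd2 lost the call on leaving out any of 4 arrays (adjusted p up to 0.058). With the hybridisation covariate the change between the sides did not pass for Rab30, Lama1, Elovl6, Acaca, Lamp5, Scd2, Rab5c or Lfng. Between 7wk and 6wk 2 genes passed without 4wk A, 6wk A or 7wk B, 3 without 3wk C or 4wk C, 4 without 3wk B or 7wk A, and 13 without 6wk C. The change from 6wk to 7wk differed from that from 3wk to 4wk for 1 gene, Chil3 (0.00807% of those tested, 1306 at an unadjusted p under 0.05).

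The 5wk arrays, which the fit did not use, lay nearer to the late side. Putting the mean of 3wk and 4wk at 0% and the mean of 6wk and 7wk at 100%, the 5wk mean stood past 50% for 634 of the 865 genes that rose (73.3%, median position 73.7%) and for 376 of the 490 that fell (76.7%, median position 81.0%). Of the 475 genes that rose without overlap, both 5wk arrays lay in or beyond the late range for 199 (41.9%) and in or beyond the early range for 42 (8.84%). Of the 257 that fell without overlap the numbers were 170 (66.1%) and 15 (5.84%).

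Lists differed in this position. The median over members that passed was 85.7% for luminal genes, 77.7% for brown adipocyte genes, 95.1% for fatty acid oxidation and 66.1% for general adipocyte genes. Single genes varied: Crabp2 at 106% had reached the late level by 5wk, while Elf5 stood at 58%, Csn2 at 60%, Ppara at 62% and Malat1 at 21%. Agt stood at 97% on average, but its ratios of 1.14 on 5wk A and 0.395 on 5wk B lay above and below the late range (0.439 to 0.859). With 2 arrays at 5wk, and their actin control ratios at −0.26 and −0.16, below those of the early arrays, the position of a single gene is loose.

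**Figure D4:**
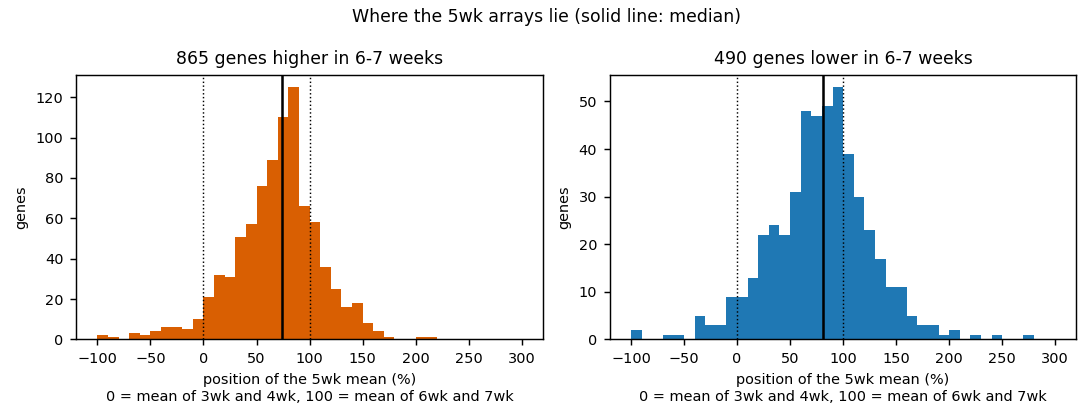
Number of genes (vertical axis) by the position of the 5wk mean in percent (horizontal axis), with 0 at the mean of 3wk and 4wk and 100 at the mean of 6wk and 7wk (dotted lines). The left panel holds the 865 genes that rose and the right panel the 490 that fell. The solid lines are the medians, 73.7% and 81.0%, and values outside the axis are drawn in the end bins.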

How the data were processed

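Total RNA of pooled glands had been labelled with biotin and hybridised to Affymetrix arrays, per the labels' protocols. The authors deposited linear ratios: in the values, 98.5% of the 22690 probe sets have a median of 1 over the 14 arrays within 0.001. The signal software, not given in the sources used here, is unknown. No offset was added before log2, and no further normalization was applied, as array medians ran from 0.953 to 1.017. Of the probe sets, 64 are controls, 20380 name 1 gene (12393 genes), 691 name several and 1555 none by the platform annotation, and the last 2 kinds were left out. Symbols were checked against RefSeq by gene identifier for 20351 probe sets, with 0 changed. A gene is the mean of its probe sets. For 17.1% of the 1-gene probe sets a low level before division was recovered from the steps of the ratios. Of the genes called, 37 rest on such probe sets alone.

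A linear model with the 4 weeks as a factor was fitted to the 12 arrays with limma 3.58.1 in R 4.3.3, without a replicate block, and contrasts were tested two-sided with Benjamini-Hochberg adjustment within each (threshold 0.05). The number of arrays limits the precision. On simulated data with 200 of 12393 genes changed, it called 18%, 48%, 90% and 92% of changes of 0.5, 1, 2 and 3 log2 units and 3 unchanged genes. The simulated noise was normal and independent, without the differences in control ratios seen here, and fewer genes changed than were called. These rates may therefore not hold for the data. Tables used pandas 2.3.3 and numpy 2.4.6 under Python 3.11.15, and plots matplotlib 3.10.9.

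The comparison, its 30 gene lists (741 of 810 genes tested) and the naming rule were chosen with earlier results of these data known. Named by the rule were the 12 largest rises and falls without overlap, up to 4 members of each list with the largest change plus members that went against it, 15 genes always named, the 5 largest changes within each side that passed in both comparisons, the 10 smallest adjusted p and the cell type markers. Other list members and the promoter motifs were named after their values were seen. Alternatives covered the arrays and weeks used, the filter on low levels, normalization, offset, the probe set summary, array weights, the replicate block, control covariates and a minimum change of 1 log2 unit.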

Additional observations from a re-analysis of the deposited data

Results flagged for a closer look

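In 13 of the 316 groups of 6 arrays examined, 1 array lay apart from the others of its side. Its gap to the nearest neighbour, divided by the range of the side, was above Dixon's critical value, where chance marks about 1 in 20. Gap and range were both taken on the log2 scale, whereas the values printed for these arrays are linear ratios. On the late side, Esr1 was low on 7wk C (ratio 0.297, the next array 0.886), Krt1 on 6wk A (0.293, next 0.944) and Atp5d on 6wk A (0.533, next 0.817), while Krt8 was high on 6wk C (1.89, next 1.28) and Itgb4 on 7wk A (1.55, next 1.17). On the early side, 3wk A was lowest for Acta2 (0.575, next 0.860), Cd14 (0.4, next 0.541), Cd68 (0.549, next 0.859), Cldn3 (0.104, next 0.330) and Csf1r (0.767, next 0.979). Csn2 was low on 3wk B (0.136, next 0.184), Acvr1c was high on 3wk B (1.68, next 1.34) and Il17b was high on 4wk C (0.917, next 0.129).

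The change of Chil3, a chitinase-like protein of macrophages, from 6wk to 7wk was lower by 5.62 log2 units than its change from 3wk to 4wk (a difference of −5.62, limma, adjusted p = 0.0365).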

How the results depend on the processing

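The number of genes that passed between late and early arrays was 1355 of 12393 and stayed within 1.5 times of that under all 14 arrays, no week term, no low levels, quantile normalization, median centring, an offset, the median of probe sets, array weights, without 4wk and with a replicate block (1226). It was 560 with the actin ratio and 152 with the hybridisation controls as a covariate, 384 without 3wk, 547 without 6wk, 746 without 7wk and 374 at a change of at least 1 log2 unit. Leaving out 1 array gave 970 to 1190. Of the probe sets 786, 188, 590, 716, 1335 and 633 passed in the same order, 1392 without 4wk, 1983 with the replicate block and 1556 to 2022 with 1 array left out, against 2290. The share of rises among the genes, 63.8%, was 55.7% after quantile normalization and 58.0% after median centring. Between 7wk and 6wk the replicate block gave 5 genes and leaving out 1 array 2 to 13. Between 4wk and 3wk the count was 18 without low levels, 0 with the replicate block and 0 to 10 with 1 array left out. For the difference between those changes it was 0 without low levels, 0 with the replicate block and 0 to 3 with 1 array left out. Letters did not pair the arrays, with correlations of −0.064 to 0.055 for the 18 pairs of the same letter and −0.077 to 0.077 for the others. The sign turned for Acaca (0.13), Lamp5 (−0.11), Rab5c (0.038) and Scd2 (0.36) without 6wk, for Elovl6 (−0.19) and Rab30 (−0.37) without 3wk, and for Scd2 (0.025) without 4wk. The cause of these changes was not tested, except that leaving out a week or an array also leaves fewer arrays. Of 4262 values of the 158 named genes, 3728 kept direction and side of the threshold, 506 no longer passed, 21 newly passed and 7 turned.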

Other observations

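Glycam1, a gene of lactating mammary epithelium and of lymph node vessels, had a change of −2.80 that did not pass, and it was chosen after its values were seen. Tgfb3, a growth factor, rose by 1.64 and Ptn, a heparin-binding growth factor, by 1.70. Ltf, the gene of the iron-binding protein lactoferrin, rose by 2.12, Krt19 by 2.03 and Krt7 by 1.82, all chosen after their values were seen.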
